A study of Mus musculus with 5 samples.

Results

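The transcripts described here are those of the T cell receptor gamma locus that were detected in mouse bone marrow during the growth of a transferred B-cell leukemia. The 4 genes are the constant genes Tcrg-C1, Tcrg-C2 and Tcrg-C4 and the variable gene Trgv2, out of 28692 genes in the count tables. They were chosen from their measured levels across T, NK, B-lineage and other cells by day, so those levels are given as a description, with no test. The samples were 5 non-irradiated, immunocompetent C57BL/6J mice, young adults, each injected in the tail vein with 1000 BCR-ABL1 pre-B acute lymphoblastic leukemia cells. One mouse was killed immediately (day 0), and the others at day 3, 6, 9 or 12. All 5 animals thus received the leukemia cells, and day 0 is the reference. Marrow from femurs and tibias was flushed and enzymatically digested, the fractions were pooled, red cells were lysed, and 1 10x Genomics 3′ library was made per mouse. With 1 mouse per day, a difference between days cannot be told apart from a difference between animals or libraries. Values by day are given throughout in the order day 0, 3, 6, 9, 12. Intervals given below are 95% exact intervals that cover counting error only.

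A T cell carries either an alpha beta or a gamma delta receptor. The gamma chain is assembled by RAG recombination from variable and joining segments that are spliced to a constant gene, and each constant gene of the mouse locus has its own joining segments nearby. Gamma delta T cells of the marrow and other tissues use different gamma chains, the delta chain is encoded elsewhere by Trdc and its variable segments, and signals from the interleukin-7 receptor through STAT5 open the gamma locus for recombination and transcription. Transcripts of unrearranged constant genes are known from other lymphoid cells, so a gamma transcript alone does not identify a gamma delta T cell.

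The 4 genes belong to a locus of 174.7 kb on chromosome 13 in the GRCm38 (mm10) build, where the positions were taken from the GENCODE vM21 annotation. Tcrg-C1 occupies chr13:19214103-19217024 on the plus strand in 3 exons, Tcrg-C2 chr13:19304649-19307551 on the minus strand in 3 exons, and Tcrg-C4 chr13:19344558-19352756 on the plus strand in 4 exons. Trgv2 occupies chr13:19336573-19337167 on the minus strand in 2 exons, 29.0 kb from Tcrg-C2, which has the same orientation, and 7.39 kb from Tcrg-C4, which is opposed to it. The coding sequences decide how well the counts of the constant genes can be separated, and the first 120 bases of the first constant exon are therefore shown 5′ to 3′ on the strand of each gene, with capitals for bases that differ from Tcrg-C1 at the same position. The Tcrg-C1 stretch is chr13:19214103-19214222, that of Tcrg-C2 chr13:19307432-19307551 and that of Tcrg-C4 chr13:19344558-19344677.
Tcrg-C1: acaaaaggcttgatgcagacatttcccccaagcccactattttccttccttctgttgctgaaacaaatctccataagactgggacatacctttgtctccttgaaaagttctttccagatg
Tcrg-C2: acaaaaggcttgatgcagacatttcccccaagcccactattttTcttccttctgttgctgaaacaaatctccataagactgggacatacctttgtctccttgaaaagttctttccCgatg
Tcrg-C4: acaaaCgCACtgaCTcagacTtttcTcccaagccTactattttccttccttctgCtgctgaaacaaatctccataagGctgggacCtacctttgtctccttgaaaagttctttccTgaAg
Over the 330 bases of that exon, Tcrg-C1 and Tcrg-C2 differed at 9 (97.3% identity), whereas Tcrg-C4 differed from Tcrg-C1 at 59 (82.1%) and from Tcrg-C2 at 61 (81.5%). In the 140 coding bases of the last exon, Tcrg-C1 and Tcrg-C2 differed at 4 and Tcrg-C4 differed from Tcrg-C1 at 44. The second constant exon, which encodes part of the hinge, separates the near-identical pair by length, with 45 bases in Tcrg-C1 (chr13:19215864-19215908, plus strand) and 30 in Tcrg-C2 (chr13:19305769-19305798, minus strand).
Tcrg-C1, second exon: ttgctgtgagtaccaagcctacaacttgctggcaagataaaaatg
Tcrg-C2, second exon: ttgctacaacttgctggcaagataaaaatg
Of the 835 overlapping 90-base stretches of the Tcrg-C1 transcript, 15 (1.80%) also occurred in Tcrg-C2. In the last 400 bases of Tcrg-C1, the end that a 3′ library reads, 15 of 311 stretches (4.82%) did. These are shares of stretches, and the bases that the stretches cover make up a larger part of the sequence. Tcrg-C3, a further constant gene with almost no counts, shared 78 of the 835 stretches (9.34%), none of them within those last 400 bases. With any other gene of the locus, 93 (11.1%) were shared. Tcrg-C4 and Trgv2 shared no such stretch with another gene of the locus. Reads from identical stretches are uncertain between Tcrg-C1 and Tcrg-C2, and the remaining sequence separates them. The start of the Trgv2 variable exon (chr13:19336760-19336879, minus strand), which has no counterpart in the constant genes, is shown for comparison.
Trgv2: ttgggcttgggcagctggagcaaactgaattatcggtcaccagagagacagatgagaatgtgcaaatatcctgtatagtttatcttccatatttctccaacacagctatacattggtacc

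The 5 libraries held 33425695 to 43554233 unique molecular identifiers (UMIs, each standing for 1 captured RNA molecule), and 5474 to 7604 barcodes per library had at least 500 UMIs and were taken as cells (32135 in all, median 2874 to 3786 UMIs). Any pair of libraries shared 44 to 73 cell barcodes, at most 1.24% of the smaller library. Cells were clustered without the gamma and delta receptor genes, so that no cluster rests on the transcripts described, and clusters were called "like" a cell type from marker lists. T-like cells (1757) had the 15 T cell markers at a summed 57.1 UMIs per 10000 UMIs, against 0.496 in neutrophil-like cells. NK-like cells (332) had the 12 NK markers at a summed 114.5 per 10000, against 15.2 in T-like cells. One group of 166 pro/pre-B cells came almost entirely from the day 3 library (158 cells), and 90.9% of the day 12 T-like cells, against 9.66 to 21.6% at the other days, exceeded a limit on mitochondrial UMIs set per library. That limit was 2.50% of UMIs in the day 12 library and 7.07 to 9.12% in the others, and the median mitochondrial share of T-like cells was 4.23% at day 12 and 4.12 to 5.04% at the other days.

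The 4 genes gave 1359 UMIs in 565 of the 32135 cells. T-like cells, 5.47% of all cells, held 510 of these UMIs (37.5%). The day 3 pro/pre-B cluster, 0.517% of all cells, held 562 (41.4%), and an unnamed lymphoid cluster of 220 cells held 98 (7.21%). Neutrophil-like cells, 54.0% of all cells, held 48 UMIs (3.53%). The transcripts were thus concentrated in 3 groups of lymphoid cells, 1 of which carried B-lineage markers.

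A level is given below as UMIs of a gene per 10000 UMIs of the same cells. The summed level of the 4 genes was 2.08 (1.91 to 2.26) in the day 3 pro/pre-B cluster, 1.75 (1.42 to 2.13) in the unnamed lymphoid cluster and 1.07 (0.981 to 1.17) in T-like cells. NK-like cells followed with 0.183 (0.105 to 0.298) and the other pro/pre-B-like cells with 0.0275 (0.0160 to 0.0440). The intervals of the first and second of these groups overlapped, and each of the other neighbours among these 5 groups was separated by its interval. Clusters that mixed markers of several classes were at 0.203 (49 UMIs) and are not placed in this order. Mature B-like cells were at 0.00729 (3 UMIs in 2213 cells, all from day 3), neutrophil-like cells at 0.00596 (0.00440 to 0.00790), and plasma-like cells had 0 UMIs in 35 cells. The levels of these 3 classes and of monocyte-like cells (0.00692) cannot be ordered at this depth. Barcodes with 1 to 100 UMIs, which hold mostly RNA free in the suspension, had a summed level of 0.127 (0.109 to 0.146). This was below that of T-like cells in each library, but it lay within the interval of NK-like cells (0.105 to 0.298).

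**Figure D1:**
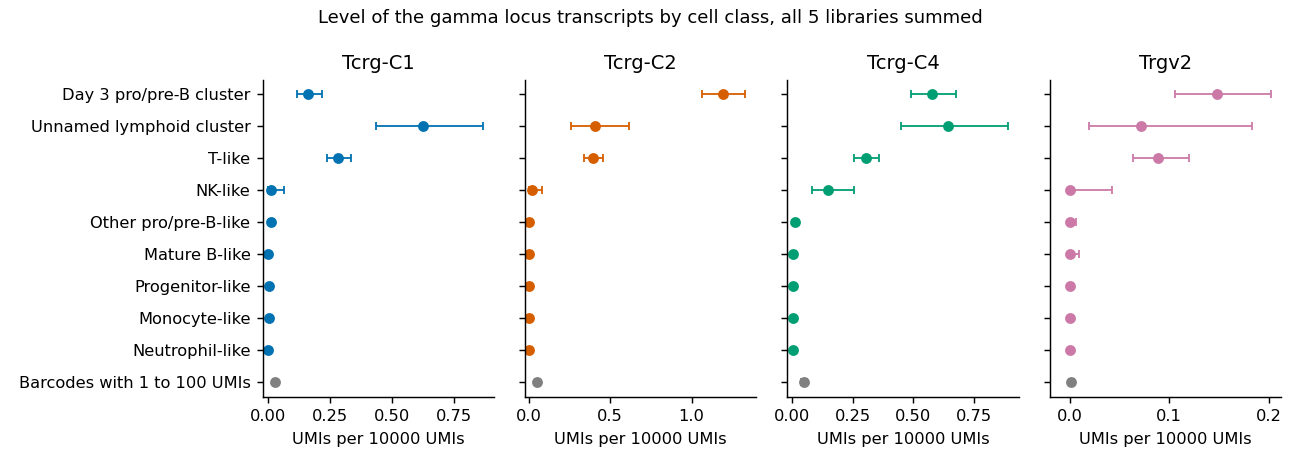
Level of each gene (UMIs per 10000 UMIs, all 5 libraries summed) in each cell class, with 95% exact Poisson intervals that cover counting error only; the grey point is the level in barcodes with 1 to 100 UMIs. Tcrg-C2 was highest in the day 3 pro/pre-B cluster (1.19), Tcrg-C1 in the unnamed lymphoid cluster (0.624), and all 4 genes were at or near 0 in mature B-like and neutrophil-like cells.

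In T-like cells all 4 transcripts were detected in every library. Tcrg-C1 had 135 UMIs, a level of 0.284 (0.238 to 0.336), with 0.222, 0.285, 0.252, 0.256 and 0.572 from day 0 to day 12. Day 12 was the high library for this gene and the other 4 lay close together. Tcrg-C2 had 189 UMIs, a level of 0.397 (0.343 to 0.458), with 0.332, 0.633, 0.346, 0.356 and 0.479 in the same order. Tcrg-C4 had 144 UMIs, a level of 0.303 (0.255 to 0.356), with 0.254, 0.586, 0.273, 0.301 and 0.166. Day 3 was highest for both Tcrg-C2 and Tcrg-C4, while day 12 was the lowest library for Tcrg-C4. Trgv2, read from the variable exon, had 42 UMIs, a level of 0.0883 (0.0636 to 0.119), with 0.0847, 0.0792, 0.0734, 0.0548 and 0.203. For comparison, Trdc, the constant gene of the delta chain, was at 1.42 in the same cells.

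At least 1 UMI of the 4 genes was found in 266 of 1757 T-like cells (15.1%, median depth 2299 UMIs), against 0.276% of neutrophil-like cells (median 3317.5 UMIs), which should lack these transcripts. After each cell had been thinned to 1000 UMIs, with shallower cells left out, the share was 8.02% (6.72 to 9.48; 126 of 1571 cells) in T-like and 0.0546% in neutrophil-like cells. By day, the thinned share was 5.33, 12.1, 8.73, 7.16 and 12.7% in day order, so that day 0 was the lowest library. Unthinned it was 11.4, 24.2, 14.5, 16.0 and 18.2%, with median depths of 1925.5, 2723.5, 2760.5, 2588.5 and 2137 UMIs. Of the 266 T-like cells with a UMI, 141 had 1, 59 had at least 3, and the highest had 11.

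Clustering of the T-like and NK-like cells alone separated T-like cells with unequal gamma levels. One cluster of 822 cells was led by Dapl1, Cd8b1, Cd8a and Lef1, and another of 581 cells by Cd160, Klra6, Ly6c2 and Ccl5. Their leading genes are what made them clusters and are no result. The summed gamma level was 2.11 in the Cd160 cluster and 0.359 in the Dapl1 cluster, a log2 ratio of 2.55 (2.16 to 2.97). It was higher in the Cd160 cluster in 5 of 5 libraries, with log2 ratios of 2.51, 2.55, 3.36, 1.84 and 2.49 in day order. Of the 8018 genes with at least 20 summed counts, 4.35% were at least 2-fold higher. All 4 genes were, but Tcrg-C1, Tcrg-C4 and Trgv2 had only 13, 15 and 6 UMIs in the Dapl1 cluster. These genes had enough counts only through the Cd160 cluster, so nothing is read from all 4 being past 2-fold. Tcrg-C1 was at 0.586 against 0.0752 (log2 ratio 2.96, 2.12 to 3.92), Tcrg-C2 at 0.764 against 0.162 (2.24, 1.64 to 2.88) and Tcrg-C4 at 0.580 against 0.0868 (2.74, 1.95 to 3.63). Each of these constant genes was higher in the Cd160 cluster in 5 of 5 libraries. Trgv2 was at 0.178 against 0.0347 (2.36, 1.08 to 3.91), with day 9 as the exception (0.0746 against 0.0880). The thinned share of cells with a UMI of the 4 genes was 16.1% in the Cd160 cluster and 2.63% in the Dapl1 cluster.

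**Figure D2:**
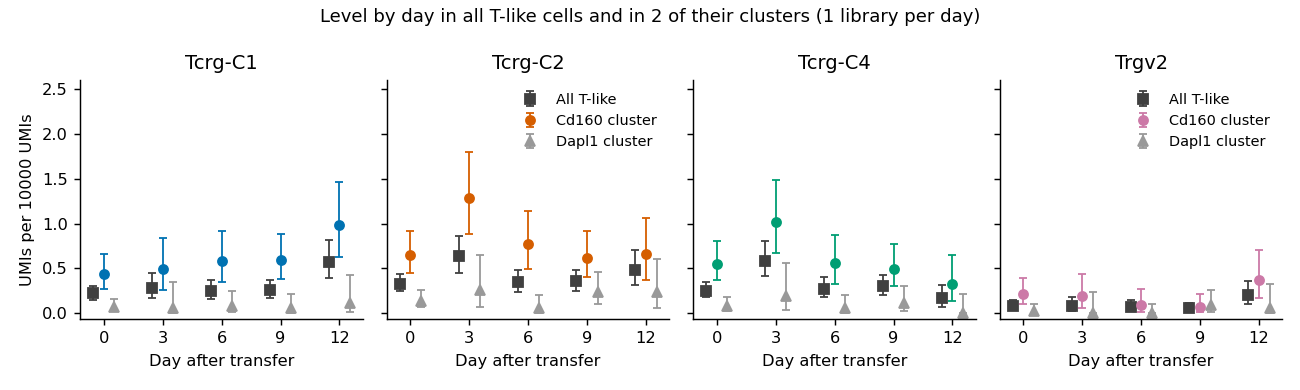
Level of each gene by day after transfer (UMIs per 10000 UMIs, 1 library per day, bars are 95% exact Poisson intervals for counting error) in all T-like cells and in their 2 largest clusters, named by a leading gene. The Cd160 cluster lay above the Dapl1 cluster at every day for the 3 constant genes, and for Trgv2 at every day but day 9.

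Cells with a UMI of Tcrg-C1, Tcrg-C2 or Tcrg-C4 were then set against the T-like cells without one (247 against 1510 cells, median depth 2742 against 2230 UMIs). Cells of 1 library share their source and are no replicates, so the ratios carry no test. Trdc, which encodes the partner of the gamma chain, was at 5.99 against 0.546, an 11.0-fold difference (log2 ratio 3.46, 3.22 to 3.70) that was present in 5 of 5 libraries. Trgv2 was at 0.289 against 0.0501 (2.53, 1.58 to 3.48). Of 8852 genes with at least 20 summed counts, 2.29% were at least 2-fold higher and 5.43% at least 2-fold lower in the cells with a constant gene UMI.

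The other genes of the receptor complex differed less. Among 8 receptor partners only Trdc was at least 2-fold higher. The alpha chain gene Trac had a log2 ratio of -0.35, the beta chain genes Trbc1 and Trbc2 of 0.20 and 0.04, and Cd3e, a signalling chain of both receptor types, of 0.30. Of 3 coreceptor genes, which alpha beta T cells use to bind MHC molecules, 2 were at least 2-fold lower. Cd8b1 had 16 UMIs in the cells with a constant gene UMI and 1905 in those without (log2 ratio -4.51, -5.32 to -3.80). Cd8a had a log2 ratio of -2.65, while Cd4 had 3 and 28 UMIs, which leaves its ratio (-0.83, -3.20 to 0.86) undetermined. Cd8b1 and Cd8a lead the Dapl1 cluster, which held 31 of the 266 T-like cells with a UMI of the 4 genes. Their ratios are thus no result separate from the clusters.

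Of the 10 cytotoxic genes, 2 were at least 2-fold lower and none at least 2-fold higher. Gzma, a granule protease, had 10 UMIs against 1702 (log2 ratio -5.02) and Gzmb, a second protease, a ratio of -1.02. A group of 104 cells that a finer clustering named NK-like, with Gzma among its markers, was counted largely as T-like here. Only 5 of these cells had a gamma UMI, and their part in the Gzma ratio was not tested. The chemokine genes Ccl5 and Xcl1 had ratios of 0.75 and 0.72. Of 4 naive T cell genes, 1 was lower, the lymph node homing receptor gene Ccr7 (-1.98). Lef1, a transcription factor of naive cells, had a ratio of -0.91. Ccl5 leads the Cd160 cluster and Lef1 the Dapl1 cluster, so the ratios of Ccl5 and Lef1 also repeat the clustering. None of the 7 interleukin-7, interleukin-15 and STAT5 pathway genes passed 2-fold, although Il2rb, the receptor chain shared by interleukin-2 and interleukin-15, was higher in 5 of 5 libraries (0.93, 0.71 to 1.15). Interleukin-7 receptor gene Il7r had a ratio of -0.34. Sox13, a transcription factor gene of the gamma delta associated list, and the interleukin-23 receptor gene Il23r had 0 UMIs in all T-like cells. Of the 14 genes of that list, 6 had enough counts and none was at least 2-fold higher or lower, with a median log2 ratio of 0.37, against 0.01 over all genes. Zbtb16, a transcription factor of innate-like T cells, had 9 UMIs in either set of cells, too few to be counted.

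The 10 genes with the largest ratio among those with at least 50 UMIs in the cells with a constant gene UMI and a higher level in at least 4 of 5 libraries were, after Trdc, Ikzf2 (1.63), Klra6 (1.52), Cd160 (1.12), Klrc1 (1.08), Cd7 (0.999), Cxcr3 (0.97), Id3 (0.95), Il2rb (0.93) and Dok2 (0.90). All 10 were higher in 5 of 5 libraries, where at least 4 were required for this list. Cd160, Klra6 and Cxcr3 also lead the Cd160 cluster, which held 188 of the 266 T-like cells with a UMI of the 4 genes. The ratios of Cd160, Klra6 and Cxcr3 thus restate part of the cluster difference and are no separate result. For Ikzf2, Klrc1, Cd7, Id3, Il2rb and Dok2 no ratio was computed within a cluster, so they are not separated from cluster membership either. At a finer clustering resolution, Ikzf2 was also at least 2-fold higher in the cluster led by Klra6 and Cd160 than in the other T and NK clusters together. Ikzf2 encodes the transcription factor Helios, Klra6 and Klrc1 encode lectin-like receptors of NK cells, Cxcr3 a chemokine receptor and Id3 an inhibitor of E proteins that gamma delta T cells induce on receptor signalling. Ikzf2 was at 4.85, 5.50, 4.61, 4.23 and 3.43 with a constant gene UMI and 1.26, 1.67, 1.28, 1.84 and 1.68 without one, at days 0 to 12. The ranges of this gene, chosen for its large ratio, did not overlap, and the share of all genes without overlap was not computed.

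**Figure D3:**
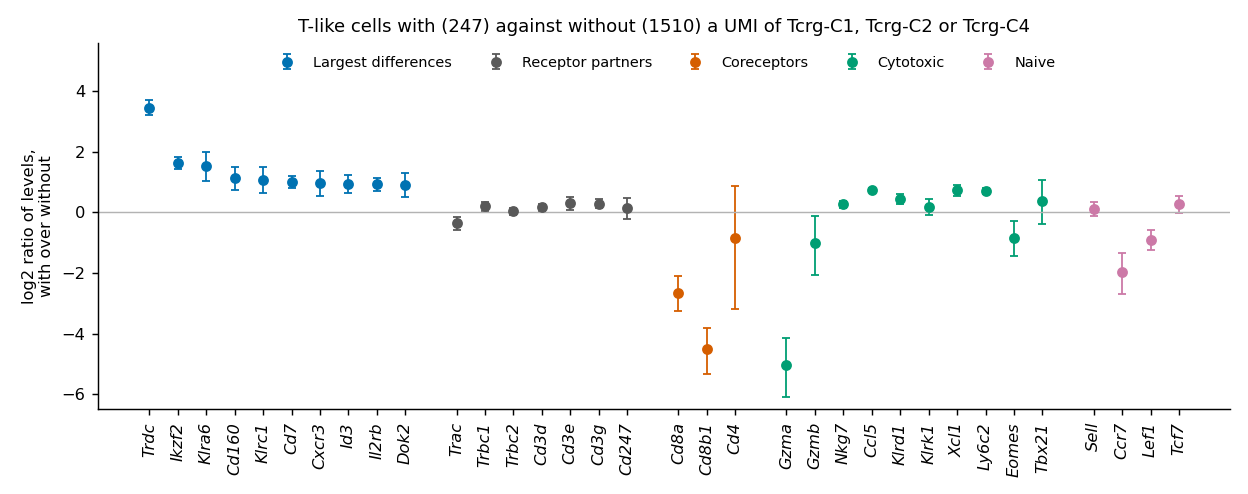
Log2 ratio of the level in T-like cells with a UMI of Tcrg-C1, Tcrg-C2 or Tcrg-C4 (247 cells) over those without (1510 cells), by gene, with 95% exact intervals that cover counting error. Trdc lay highest at 3.46, and Cd8b1 (-4.51) and Gzma (-5.02) lay lowest.

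In single T-like cells the receptor genes overlapped in part. Trdc was found in 46.6% of the 247 cells with a constant gene UMI and in 5.89% of the 1510 cells without. By day these shares were 43.2, 48.8, 65.8, 30.2 and 53.8% with and 5.52, 6.80, 4.37, 4.62 and 10.4% without, so that the sets did not overlap. The share of all genes without overlap was not computed. Depth was not equalised in these shares, and the cells with a constant gene UMI were deeper (median 2742 against 2230 UMIs). Conversely, 56.4% of the 204 T-like cells with a Trdc UMI had a UMI of a gamma constant gene. Trac was found in 36.0% of cells with and 48.0% of cells without a constant gene UMI, and Trbc2 in 83.0 and 73.8%. A UMI of Trac, Trbc1 or Trbc2 was present in 93.9% of the cells with a gamma constant gene. These genes are among the markers by which T-like clusters were named. Such a UMI was also found in 67.1% of the 319 NK-like cells without a gamma constant gene. It does not by itself identify an alpha beta receptor. Cd8b1 was found in 4.86% against 44.2%, at 2.33 to 6.76% and 32.8 to 49.6% over the 5 libraries. For these ranges, too, the share of all genes without overlap was not computed.

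The constant genes also occurred together. Of the 247 cells, 29.1% had UMIs of several constant genes and 6.48% of all 3. Of 95 cells with Tcrg-C1, 31.6% had Tcrg-C2 and 33.7% had Tcrg-C4, and of 130 cells with Tcrg-C2, 32.3% had Tcrg-C4. Tcrg-C4, whose sequence is distinct, was thus found beside each of the near-identical genes at about the same share. Of 40 cells with Trgv2, 52.5% had Trdc, 35.0% Tcrg-C2, 32.5% Tcrg-C4 and 17.5% Tcrg-C1. These shares are limited by depth, since most cells had a single UMI of these genes.

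Compared with day 0, T-like cells at day 3 had 1 of 3 genes with enough counts at least 2-fold higher or lower, where 8.45% of 6805 genes passed that threshold. This was Tcrg-C4 (log2 ratio 1.20, 0.52 to 1.89), with Tcrg-C2 at 0.93 (0.30 to 1.56) and Tcrg-C1 at 0.36 (-0.55 to 1.23). The summed level rose from 0.893 to 1.58 UMIs per 10000 between these libraries (0.83, 0.44 to 1.21). Barcodes with 1 to 100 UMIs also had a higher summed level in the day 3 library (0.286, of which Tcrg-C2 0.146 and Tcrg-C4 0.115) than at day 0 (0.107), and their part in the difference was not tested. Within the Cd160 cluster, the day 3 ratio was 0.97 (0.24 to 1.71) for Tcrg-C2 and 0.88 (0.06 to 1.69) for Tcrg-C4.

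At day 6, none of the 4 genes passed 2-fold (6.08% of genes did), and the summed level of 0.944 gave a log2 ratio of 0.08 (-0.32 to 0.47). At day 9, none of 3 did (6.94% of genes), and the summed level of 0.968 gave 0.12 (-0.26 to 0.49). The interval of each of the 4 genes at these days also included 0, and a change of up to the size of these intervals would not have been detectable.

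At day 12, 2 of the 4 genes were at least 2-fold higher and 0 lower. Of 6673 genes, 2.56% were at least 2-fold higher and 5.41% lower (7.97% in either direction). Tcrg-C1 had a log2 ratio of 1.37 (0.62 to 2.11) and Trgv2 of 1.26 (-0.04 to 2.53), while Tcrg-C2 (0.53, -0.21 to 1.24) and Tcrg-C4 (-0.62, -1.85 to 0.45) were not distinguishable from day 0. The summed level was 1.42 (0.67, 0.25 to 1.08). With cells gated on T cell marker UMIs instead of clusters (1845 cells over all days, 1245 of them T-like), the log2 ratio of the sum was 0.42 (-0.04 to 0.87). Trdc, the only one of the 8 receptor partners past 2-fold, was at 3.01 against 1.15 (1.39, 1.07 to 1.71). Within the Cd160 cluster, the ratio was 1.18 (0.28 to 2.08) for Tcrg-C1 and 0.33 (-0.17 to 0.82) for the sum. That cluster made up 27.0, 40.5, 32.4, 37.4 and 39.4% of T-like cells in day order, and its part in the summed ratios was not tested further. With cells over the mitochondrial limit left out, 21 of the 231 day 12 T-like cells remained and the Tcrg-C1 ratio was 2.39 (1.06 to 3.54).

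Among the lists of partner genes, changes past 2-fold compared with day 0 were few. No receptor partner passed at day 3, 6 or 9, and none of the 2 coreceptor genes with enough counts passed at any day. Of the STAT5 pathway genes only Jak3 passed, at day 12 (1.36, -0.03 to 2.74), on 10 and 11 UMIs. Of the gamma delta associated genes only Tmem176a passed, at day 9 (1.07, -0.34 to 2.57), on 12 and 8 UMIs. Of the cytotoxic genes only Gzmb passed, at day 3 (-1.10). No recombination gene had enough counts. Of the naive genes Lef1 passed at day 9 (-1.03) and Ccr7 at day 12 (-1.02).

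The composition of the gamma UMIs in T-like cells was similar in the first 4 libraries. Tcrg-C1 gave 24.8, 18, 26.7 and 26.4% of the UMIs of the 4 genes at days 0, 3, 6 and 9, Tcrg-C2 37.2, 40, 36.7 and 36.8%, and Tcrg-C4 28.5, 37, 28.9 and 31.1%. At day 12, Tcrg-C1 gave 40.3% (29.2 to 52.1), Tcrg-C2 33.8% (23.4 to 45.4) and Tcrg-C4 11.7% (5.49 to 21.0), and the intervals of Tcrg-C1 and Tcrg-C2 overlapped. Trgv2 gave 5 to 9.49% at the earlier days and 14.3% at day 12.

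**Figure D4:**
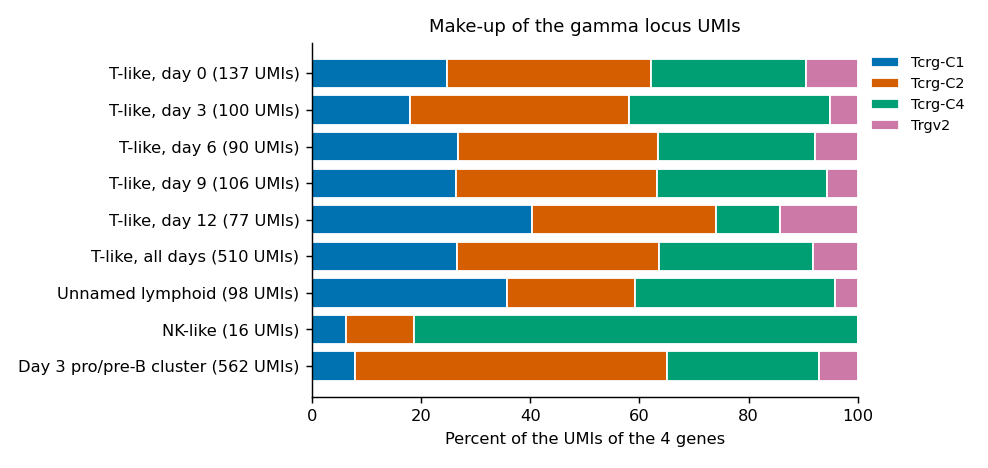
Share of each gene in the UMIs of the 4 genes (percent, bars sum to 100) in T-like cells by day and in the other cell groups. Tcrg-C1 gave 40.3% at day 12, Tcrg-C4 gave 81.3% of the 16 UMIs of NK-like cells, and Tcrg-C2 gave 57.3% in the day 3 pro/pre-B cluster.

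The unnamed lymphoid cluster (220 cells, median 2366 UMIs) had T cell markers at a summed 70.0 per 10000 and innate lymphoid markers at 11.5, against 2.68 in T-like cells. Tcrg-C1 was at 0.624 (35 UMIs), Tcrg-C2 at 0.410 (23), Tcrg-C4 at 0.642 (36) and Trgv2 at 0.0713 (4). The summed level was 2.52, 1.93, 1.08, 2.14 and 1.86 in day order, on 7 to 29 UMIs per library. Trdc had 29 UMIs (0.517), all from days 0, 3 and 6, so gamma transcripts were present at days 9 and 12 without a UMI of the delta constant gene. At a finer clustering resolution, all 98 gamma UMIs lay in 38 cells of a 123-cell cluster led by Calca, Cxcr6, Il13, Il5, Rora and Gata3, at 2.79 per 10000. A second cluster of 101 cells, led by Tnfrsf4, Izumo1r, Cd4, Ctla4 and Foxp3, had 0. Several of the 4 genes were found in 16 of the 38 cells (42.1%).

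NK-like cells had gamma UMIs in 13 of 332 cells (3.92%, 1.32% when thinned, against 0.0546% in neutrophil-like cells), and no cell had more than 2. Tcrg-C4 had 13 UMIs in 10 cells, a level of 0.149 (0.0793 to 0.255), from 6, 0, 2, 5 and 0 UMIs in day order. Tcrg-C1 had 1 UMI, Tcrg-C2 2 and Trgv2 0. Tcrg-C4 thus made up 81.3% (54.4 to 96.0) of the gamma UMIs of NK-like cells, compared with 28.2% in T-like cells. Trdc was at 0.939 (0.747 to 1.17), in 19.3% of NK-like cells, so the delta constant gene was common in NK-like cells while gamma transcripts were rare. No NK-like cell had UMIs of several of the 4 genes. At a finer clustering resolution, a second cluster with NK markers (104 cells, led by Crem and Irf8) had 9 gamma UMIs in 5 cells, 3 of them of Tcrg-C4, 4 of Tcrg-C2 and 2 of Tcrg-C1, with up to 4 in a cell. In the main clustering those cells were counted largely as T-like. With those cells counted as NK-like, some cells carried several genes and the Tcrg-C4 share was lower.

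Among B-lineage cells, gamma transcripts lay in the day 3 pro/pre-B cluster. Of its 166 cells, 158 came from day 3, and the 8 cells of other days had no gamma UMI. Those 8 cells were shallow (534 to 1547 UMIs), so their zeros do not show that the transcripts were absent. A group of cells from 1 library may be a feature of that library, and it cannot be told apart from one of day 3. Its leading genes included Myl10, Rnase12, Mt1, Mt2, Cdkn2a, Tmem119 and Vpreb2. The labels do not mark the transferred cells, so whether these cells descend from them was not tested. B-lineage markers had a summed level of 59.7, against 143.3 in the other pro/pre-B-like cells. T cell markers were at 1.68, with 3 of 15 at 0 (Cd3e, Trac and Bcl11b), against 57.1 in T-like cells. Most of that level came from the signalling genes Lat (303 UMIs, 1.12 against 2.05 in T-like cells) and Lck (102 UMIs, 0.378 against 2.68). NK markers were at 0.211, with 4 of 12 at 0 (Ncr1, Klrb1c, Eomes and Prf1). The cells were deep, with a median of 15055.5 UMIs, against 2754.5 in the other pro/pre-B-like cells of day 3, while the median doublet scores were 0.0576 and 0.0554.

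Tcrg-C2 had 322 UMIs in this cluster, a level of 1.19 (1.07 to 1.33), Tcrg-C4 156 (0.578), Tcrg-C1 44 (0.163) and Trgv2 40 (0.148). Trdc had 2 UMIs. The other 178 pro/pre-B-like cells of day 3 had 1 gamma UMI, of Tcrg-C4. Against those cells the level was at least 40.8-fold higher for Tcrg-C2, at least 5.58-fold for Tcrg-C1 and at least 5.07-fold for Trgv2, each computed against a floor of 3 counts. For Tcrg-C4 the log2 ratio was 5.89 (3.39 to 11.2), which rests on that 1 UMI and cannot be ranked against the other genes. Of 8297 genes, 7.86% were at least 2-fold higher in the cluster, but the 4 genes had enough counts only through the cluster itself, so nothing is read from all 4 being past 2-fold. Tcrg-C2 gave 57.3% (53.1 to 61.4) of the gamma UMIs and Tcrg-C1 7.83% (5.75 to 10.4), compared with 37.1 and 26.5% in T-like cells, with intervals that did not overlap. The near-identical pair thus had unlike counts in this cluster, with many Tcrg-C2 and few Tcrg-C1 UMIs. Whether some Tcrg-C1 UMIs came from Tcrg-C2 reads was not tested.

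A gamma UMI was found in 112 of the 166 cells (67.5%), and in 18.4% of the 141 cells that could be thinned to 1000 UMIs. In 68 cells there were at least 3 UMIs, in 44 at least 5, and the highest cell had 33 (10 of Tcrg-C1, 16 of Tcrg-C2 and 7 of Tcrg-C4, among 54475 UMIs). At finer resolution, 130 cells, all from day 3, held 558 of the 562 UMIs and the other 36 held 4. The median depth was 19774.5 UMIs in the 130 cells and 918.5 in the 36, so the few UMIs of the latter do not show a lower level. The transcripts were spread over most cells of the larger group, 83.8% of which had a gamma UMI at that depth (19.4% when thinned to 1000 UMIs).

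The genes occurred in the same cells. Of 93 cells with Tcrg-C2, 60.2% had Tcrg-C4, 31.2% Trgv2 and 11.8% Tcrg-C1, but 1.08% had Trdc and 7.53% had Trac, Trbc1 or Trbc2. Of 34 cells with Trgv2, 85.3% had Tcrg-C2, 73.5% Tcrg-C4 and 17.6% Tcrg-C1. Of all 110 cells with a constant gene, 84.5% had Tcrg-C2, 60.9% Tcrg-C4 and 17.3% Tcrg-C1. The Tcrg-C2 and Tcrg-C1 shares among Trgv2 cells were close to these. Of all 166 cells of the cluster, 93 had Tcrg-C2, 67 Tcrg-C4 and 19 Tcrg-C1, which are lower shares than among Trgv2 cells. Depth was not equalised in these shares. Several of the 4 genes were found in 69 of 112 cells (61.6%), compared with 84 of 266 T-like cells (31.6%), at unequal depth.

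**Figure D5:**
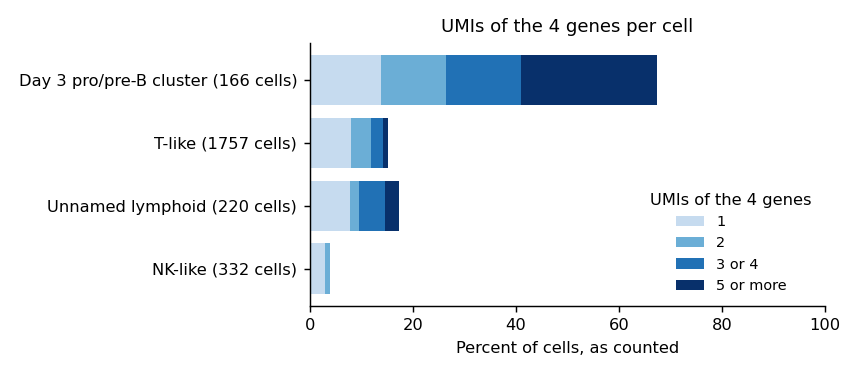
Cells by their number of UMIs of the 4 genes (0, 1, 2, 3 or 4, and 5 or more; percent of the cells of each group, not corrected for depth). In the day 3 pro/pre-B cluster (median 15055.5 UMIs) 44 of 166 cells had at least 5, compared with 15 of 1757 T-like cells (median 2299 UMIs).

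The recombination genes went the other way in this cluster. Rag1 and Rag2, the recombinase that assembles receptor genes, and Dntt, which adds bases at the joints, were all at least 2-fold lower than in the other pro/pre-B-like cells of day 3, with log2 ratios of -4.32, -2.56 and -1.08, where 12.5% of genes were. Since the clustering used these genes, the ratios describe the cluster and are no separate result. Of the 5 STAT5 pathway genes with enough counts, none was at least 2-fold higher and Il7r was lower (-1.08). Their median log2 ratio was -0.07, against -0.16 over all genes. Stat5a had a ratio of 0.75 (-0.17 to 1.79), Stat5b of 0.27 and Jak1 of -0.07. Of 5 genes of the gamma delta associated list, none was higher and Blk, a kinase that B cells also use, was lower (-1.68). Of 4 cytotoxic genes 1 was higher, the NK receptor chain gene Klrd1 (3.51, on 30 UMIs against 1), and of 3 naive genes Ccr7 was lower (-3.67).

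In the other pro/pre-B-like cells of all days (1282 cells), 8 cells held 17 gamma UMIs, and 10 of these (5 of Tcrg-C1 and 5 of Tcrg-C4) came from 1 cell of day 9. Nearly all gamma UMIs of B-lineage cells thus lay in the day 3 cluster. The summed level over all B-lineage cells was 0.431 with that cluster and 0.0185 without it.

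Of the 10 other gamma locus genes in the count tables, 8 had no UMI in any cell. Tcrg-C3 had 3 UMIs and Tcrg-V3 had 2, all in T-like cells, so the 4 genes carried nearly all gamma counts. Of the 8 genes at 0, 4 overlap another annotated gene, Gm31887, which limits what their zeros can tell, and 1 further annotated variable gene was not analysed here. Of the delta variable genes, Trdv5 had 15 UMIs in T-like cells and Trdv2-2 had 12 in T-like and 19 in NK-like cells (0.218 per 10000).

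Likeness to other genes was measured over 51 profiles of a cell class in 1 library with at least 20 cells, by Pearson r of log2(CPM + 1), where CPM are counts scaled to a common total. The profiles share libraries and depth, and r is a description. Tcrg-C1 was most like Izumo1r (0.916), Acsbg1 (0.899) and Bcl11b (0.898). Tcrg-C2 was most like Trgv2 (0.881), Tcrg-C1 (0.878) and Tcrg-C4 (0.858), and Tcrg-C4 most like Cxcr6 (0.887), Tcrg-C1 (0.870) and Tcrg-C2 (0.858). Trgv2 was most like Tcrg-C2 (0.881), Tcrg-C1 (0.855) and Acsbg1 (0.814). Trdc was less like each of the 4 genes, with r of 0.60 to 0.68. When the profile of the day 3 pro/pre-B cluster was left out, Bcl11b, a transcription factor of T cell commitment, became the gene most like both Tcrg-C1 (0.940) and Tcrg-C2 (0.916).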

How the data were processed

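The authors deposited raw UMI counts per gene and barcode, 1 matrix per library, made with Cell Ranger on mm10 according to the submitters' processing notes. The annotation release used for counting is not given in the sources used here. Barcodes with at least 500 UMIs were kept, counts were scaled to 10000 per cell and log-transformed, and cells were clustered together with scanpy 1.11.5 and leidenalg 0.10.2 in Python 3.11.15 (1005 variable genes, 20 principal components, 20 neighbours, resolution 0.6, 20 clusters). The 35 receptor gamma and delta genes were left out. Levels are summed counts over summed UMIs with exact Poisson intervals, shares have Clopper-Pearson intervals, and ratios have conditional binomial intervals (scipy 1.17.1). With 1 mouse per day, no p-value was computed, and "called" means a difference of at least 2-fold among genes with at least 20 summed counts. Doublets were kept: Scrublet's automatic threshold marked almost no cell in 4 libraries and was treated as having failed there, so leaving out the highest 5% of scores was added as an alternative. The ratio step was checked on simulated data.

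The genes named are the 4 gamma transcripts, the other gamma and delta locus genes, fixed lists (receptor partners, coreceptors, STAT5 pathway, recombination, gamma delta associated, cytotoxic, naive), and the 10 genes with the largest ratio between T-like cells with and without a constant gene UMI. The genes and lists were chosen with earlier results of these data known. Sequences and positions came from GENCODE vM21 (GRCm38).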

Additional observations from a re-analysis of the deposited data

How the results depend on the processing

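Of 108 recomputed values, 93 moved by less than their counting interval, and neither day 12 ratio changed direction. Cells gated on T cell marker UMIs instead of clusters gave levels of 0.157 (Tcrg-C1), 0.221 (Tcrg-C2), 0.165 (Tcrg-C4) and 0.0498 (Trgv2), and a thinned share of 5.76%. That gate took 1845 cells, of which 1245 were among the 1757 T-like cells, so it also held cells of other classes. Thinning to 500 UMIs gave 4.38%. The summed B-lineage level (0.431) was 0.0883 as a mean over cells and 0.0185 without the day 3 pro/pre-B cluster, an alternative chosen after seeing the data. Leaving out 1 library at a time gave 0.0173 (without day 3) to 0.573 for that level, and 7.32 to 9.61% (without day 0) for the thinned T-like share. In T-like cells the same gave 0.247 to 0.313 for Tcrg-C1, 0.361 to 0.428 for Tcrg-C2, 0.259 to 0.326 for Tcrg-C4 and 0.0736 to 0.0983 for Trgv2, and in NK-like cells a sum of 0.151 to 0.222. With cells over the mitochondrial limit left out, the day 12 against day 0 log2 ratio was 1.14 for the sum and 2.39 for Tcrg-C1. The cause of these shifts was not tested. No paired analysis was possible because each day had 1 mouse and no comparison was tested.

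Detection was limited by depth: most T-like cells with a gamma transcript had 1 or 2 UMIs, so shares of cells depend on depth, and a receptor gene without a UMI in a cell is not shown to be absent. Differences between days rest on single animals.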
